A study of Saccharomyces cerevisiae x Saccharomyces kudriavzevii and Saccharomyces cerevisiae with 12 samples.

Results

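The wine yeast Lalvin W27, a hybrid of Saccharomyces cerevisiae and S. kudriavzevii, was compared with the S. cerevisiae wine strain Lalvin T73 in Tempranillo must fermented at 12 °C. The measurements were the 3 arrays labelled W27 at 12 °C (replicates A, B and C) of the 12 arrays in the series. Of the 6178 open reading frames (ORFs) in the table, 6176 had a value on at least 2 of these 3 arrays and 6082 had one on all 3. The other 9 arrays held W27 at 28 °C and the hybrid VIN7 at 12 and 28 °C, with 3 arrays each. In every group, cells were taken at the beginning of the stationary phase, hybrid cDNA carried Cy3 and T73 cDNA from the same temperature carried Cy5. Each value was the log2 ratio of hybrid over T73, so that 1 stands for a level 2-fold higher in the hybrid and -1 for a level 2-fold lower. The dyes were not swapped, and a dye effect and a strain difference cannot be told apart in any single ratio. The direction is not written beside the deposited values. The dyes, and the direction in which the study reports YMR210W and YIR007W, make T73 over hybrid the likely reading, and the sign was turned.

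Hybrids of these species combine the alcohol tolerance of S. cerevisiae with the growth at low temperature of S. kudriavzevii, and they are found in wine and cider of cool regions. The study describes W27 and VIN7 as triploid, the S. cerevisiae genome being present in a double dose and that of S. kudriavzevii in a single one. W27 carries chimeric chromosomes in which parts of both genomes are joined. The arrays carried ORFs of the S. cerevisiae laboratory strain S288c. A ratio therefore adds up the transcripts of both parental genomes that bound to a spot. The study's methods state that the hybridization conditions were chosen so that S. kudriavzevii cDNA would bind as well. How well it bound to these spots was not tested here. T73 has no S. kudriavzevii genome. The table identifies ORFs by systematic name alone and does not pair them with gene symbols. A systematic name gives the chromosome (second letter), the arm (L or R), the number counted outward from the centromere and the strand (W or C), and the ORFs are described here by these positions.

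The 3 arrays differed in spread before any ORF was compared. The SD of the log2 ratios over ORFs was 0.60 on replicate A, 1.23 on replicate B and 1.24 on replicate C. Replicate A had 251 ORFs at least 2-fold higher and 295 at least 2-fold lower in W27, against 1149 and 920 on replicate B and 1109 and 1478 on replicate C. Replicate A was thus the quietest of the 3, and B and C moved more alike than either did with A. Across ORFs, which share these 3 arrays and are not independent, Pearson's r was 0.59 between B and C (n = 6082), 0.25 between A and B (n = 6092) and 0.30 between A and C (n = 6166). VIN7 at 12 °C replicate A had r of 0.74 with C, 0.64 with B and 0.30 with A. Replicates B and C of W27 were thus each closer to that VIN7 array than to each other. Replicates B and C of VIN7 at 12 °C had r between 0.13 and 0.48 with the 3 arrays of W27 at 12 °C. One array of another group, VIN7 at 28 °C replicate C, ran against the arrays of W27 at 12 °C. Its r was -0.70 with W27 at 12 °C replicate C, -0.48 with replicate B and -0.16 with replicate A, and -0.60 with VIN7 at 12 °C replicate A. The other 5 arrays at 28 °C had r between 0.05 and 0.35 with the 3 arrays of W27 at 12 °C. The direction of that one array is not settled, and most values that rest on it are given with its sign turned too. Where they are not, this is said.

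**Figure D1:**
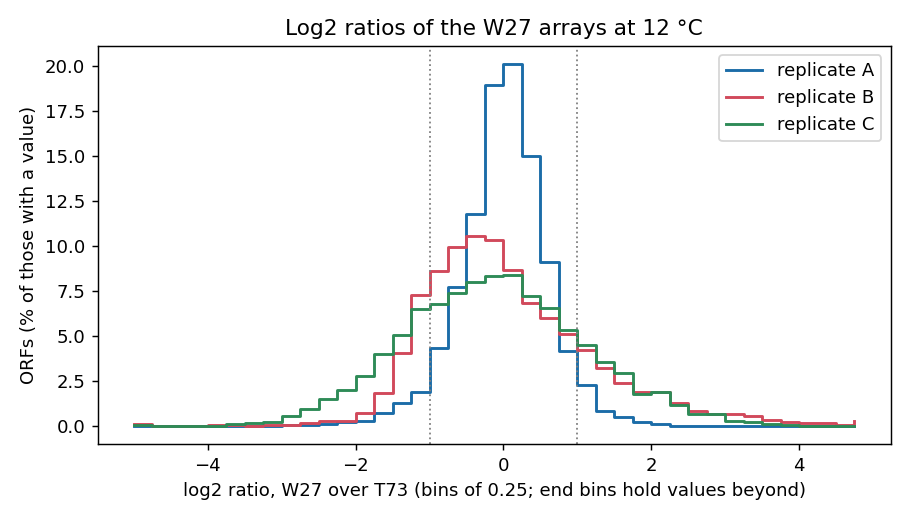
Share of ORFs (%) by log2 ratio of W27 over T73 in bins of 0.25, 1 line per array at 12 °C, with dotted lines at 2-fold. Replicate A is narrow, with 8.84% of its ORFs beyond 2-fold, against 34.0% on replicate B and 42.0% on replicate C.

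By the median of the arrays, 657 ORFs were at least 2-fold higher in W27 than in T73 (10.6% of 6176) and 694 were at least 2-fold lower (11.2%). The numbers in the 2 directions were close at this threshold as deposited and far apart at 4-fold, where 145 ORFs were higher and 15 lower. With each array recentred on its median, 781 ORFs were 2-fold higher and 555 lower. Of the 145 ORFs past 4-fold upward, 141 passed it on replicate B, 140 on replicate C and 4 on replicate A, although 132 lay above 0 on A. The 15 ORFs on the lower side had 9 past 4-fold on A, 6 on B and 15 on C. Without replicate C, 326 ORFs were 2-fold lower and, without replicate A, 1095.

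Agreement between arrays was read by choosing ORFs on a pair of arrays and looking at the remaining one. The 599 ORFs that were 2-fold higher on both B and C had a median of 0.34 on replicate A, and 79.5% of them lay above 0 there, beside 52.1% of all ORFs with 3 values. Only 7.35% of these 599 were also 2-fold higher on A, beside 4.01% of all ORFs. The 580 ORFs that were 2-fold lower on B and C had a median of -0.26 on A, with 66.9% below 0 beside 47.9% of all ORFs, and 12.2% were 2-fold lower beside 4.83%. Most of these ORFs therefore kept their side of 0 on the quiet array at a much smaller size. In all, 44 ORFs (0.723% of 6082) were at least 2-fold higher on each of the 3 arrays and 71 (1.17%) were at least 2-fold lower. None was 4-fold apart on all 3 in either direction.

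Against 0, limma called 0 of 6176 ORFs at an adjusted p under 0.05 (0% in the background of all ORFs), and the lowest adjusted p was 0.31. At an unadjusted p under 0.05 there were 910 ORFs, 466 with a higher mean in W27 (7.55%) and 444 with a lower mean (7.19%). The labels call the arrays biological replicates while the study's methods name 2 independent fermentations, so part of the spread behind these p-values may be technical. The spread in this fit was pooled over the 12 arrays of the series and is not that of these 3 arrays alone. With only these 3 arrays, limma again called 0 of 6176 ORFs. The lowest adjusted p was then 0.084, and 1433 ORFs had an unadjusted p under 0.05. No single ORF can be said to differ from T73 in either fit, and the ORFs that follow are given by their values.

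The ORF with the smallest p was YFL063W, the sixth ORF from the left end of chromosome VI. Its log2 ratio was 2.18 on replicate A, 2.63 on B and 1.57 on C, a mean of 2.13 ± 0.53 (SD, n = 3; limma standard error 0.40, adjusted p = 0.31). All 3 arrays were high, with replicate A between the other two. At 28 °C the ratio in W27 was 0.68, 1.31 and 1.12, and in VIN7 at 12 °C it was 1.43, 1.37 and -0.07. The mean in W27 at 12 °C was 1.22 above that of VIN7 (limma adjusted p = 1.00) and 1.09 above that of W27 at 28 °C (limma adjusted p = 0.75), and neither difference passed.

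YNR077C, the outermost ORF at the right end of chromosome XIV in the table, gave 3.08, 1.45 and 1.68 on the 3 arrays (mean 2.07 ± 0.88, SD, n = 3; limma adjusted p = 0.31). Replicate A was the highest here. The ORF lay above 0 on all 12 arrays of the series as labelled, with a mean of 0.91 ± 0.03 for VIN7 at 12 °C, 0.68 ± 0.53 for VIN7 at 28 °C and 1.69 ± 0.79 for W27 at 28 °C (SD, n = 3 each). With the sign of VIN7 at 28 °C replicate C turned, that array was at -0.51 and the mean of its group was 0.34. The values of W27 at 12 and 28 °C overlapped.

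On the lower side, YGR236C on the right arm of chromosome VII gave -2.99, -1.26 and -1.997 (mean -2.08 ± 0.87, SD, n = 3; limma adjusted p = 0.31). It was below 0 on all 12 arrays as labelled, with a mean of -0.58 ± 0.26 for VIN7 at 12 °C, -1.60 ± 0.49 for VIN7 at 28 °C and -0.84 ± 0.62 for W27 at 28 °C. With the sign of VIN7 at 28 °C replicate C turned, that array was at 1.29 and the mean of its group was -0.74. The values of W27 at 12 °C lay below the 3 of VIN7 at the same temperature, and the difference of -1.50 did not pass (limma adjusted p = 1.00). YKL100C on the left arm of chromosome XI gave -2.15, -1.40 and -1.83, a mean of -1.79 ± 0.38 (SD, n = 3; limma adjusted p = 0.31). This was the tightest of the 4 sets of values. VIN7 at 12 °C gave -1.90, -0.47 and -1.13 for it, which overlapped with W27, and W27 at 28 °C gave -1.19, -0.72 and -0.04, which did not.

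A further pair of ORFs is named by systematic name in the study. The direction it reports for them helped to set the sign of all ratios, so their side of 0 is no separate result. YMR210W, a putative acyltransferase of a family linked to ester formation, gave -0.12 on replicate A, -1.60 on B and -1.89 on C. The mean was -1.20 ± 0.95 (SD, n = 3; limma adjusted p = 0.33). All 3 values were below 0, and replicate A was close to it. In W27 at 28 °C the ORF gave -0.39, 0.62 and -0.55, on both sides of 0. YIR007W, a putative glycosidase, an enzyme type that releases aroma compounds bound to sugars, gave -0.48, 1.96 and 0.81 (mean 0.77 ± 1.22, SD, n = 3; limma adjusted p = 0.54). Its arrays disagreed in sign. VIN7 at 12 °C gave 1.49, 3.52 and 0.76 for it.

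**Figure D2:**
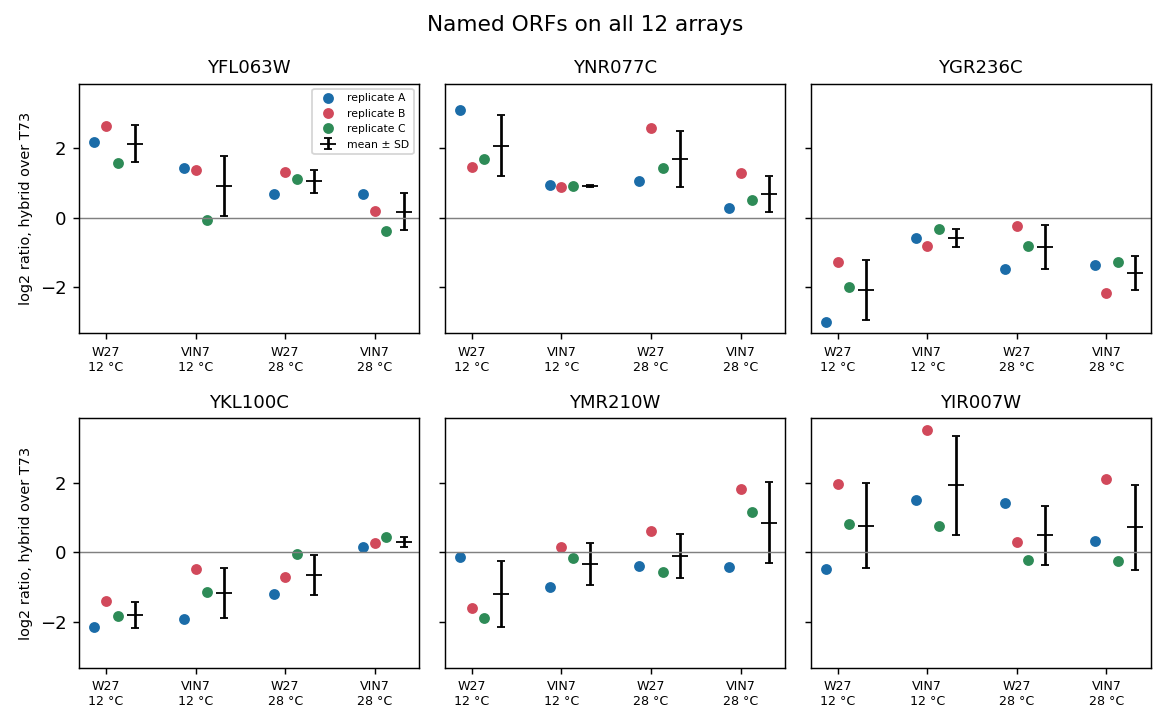
Log2 ratio of hybrid over T73 for the 6 named ORFs, 1 point per array (replicates A, B and C) and the mean ± SD (n = 3) for each hybrid and temperature. YNR077C lies above 0 and YGR236C below 0 on all 12 arrays as labelled (on 11 with the sign of VIN7 at 28 °C replicate C turned), while YIR007W has 1 of 3 arrays below 0 in W27 at 12 °C.

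Position on the genome showed a pattern on all 3 arrays. ORFs of chromosome I had medians of 0.34 on replicate A, 0.75 on B and 0.90 on C. Those of chromosome III had 0.30, 1.00 and 0.61, and those of chromosome II had 0.27, 0.21 and 0.13. These chromosomes stood above the medians of all ORFs, which were 0.03, -0.12 and -0.14. Among the remaining 13 chromosomes, no median was above 0 on every array as deposited, and only that of chromosome IV was with each array recentred on its median. Chromosome VII was the lowest by the median of its ORFs, with -0.04 on A, -0.31 on B and -0.40 on C.

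On chromosome I, 35 of 110 ORFs (31.8%) were at least 2-fold higher by the median and 4 (3.64%) at least 2-fold lower, beside 10.6% and 11.2% of all ORFs. Its left arm held 27 of these 35. On chromosome III, 60 of 204 ORFs were 2-fold higher (29.4%) and 10 lower (4.90%). Together chromosomes I, II and III held 735 ORFs, 11.9% of those with values. They held 25.4% of the ORFs 2-fold higher, 35.2% of those 4-fold higher and 6.63% of those 2-fold lower. Of the 15 ORFs 4-fold lower, 4 (26.7%) lay on them, so at 4-fold their share was above 11.9% in both directions. Values were missing more often here: 694 of the 735 ORFs had one on all 3 arrays, beside 6082 of all 6176. The medians of the ORF medians of chromosomes I, II and III were 0.62, 0.23 and 0.53. With only ORFs valued on all 3 arrays they were 0.62, 0.21 and 0.49. Chromosome III includes 30 ORFs with values under older names that do not follow the standard numbering. These had medians of 0.40, 1.52 and 1.14, and 13 of them were 2-fold higher and 0 lower. The other 174 ORFs of chromosome III had 0.26, 0.87 and 0.46, so the higher level of this chromosome did not rest on the older names.

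Chromosomes I to III were also above 0 on most arrays of the groups nearest to W27 at 12 °C. VIN7 at 12 °C, measured against T73 at the same temperature, gave medians of 0.88, 0.30 and 0.26 on replicates A, B and C for chromosomes I to III. W27 at 28 °C gave 0.68, 0.36 and -0.04. The remaining group, VIN7 at 28 °C, gave 0.46, 1.32 and 0.24 as labelled, and its replicate C falls below 0 with its sign turned. The 3 chromosomes differed on that replicate, with -0.84 for chromosome I, 0.48 for II and 0.125 for III as labelled. With the sign turned, chromosome I lies above 0 there and II and III below. For W27 at 12 °C the medians of chromosomes I to III together were 0.28, 0.53 and 0.37. Whether the print order of the spots follows the order of names was not tested.

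**Figure D3:**
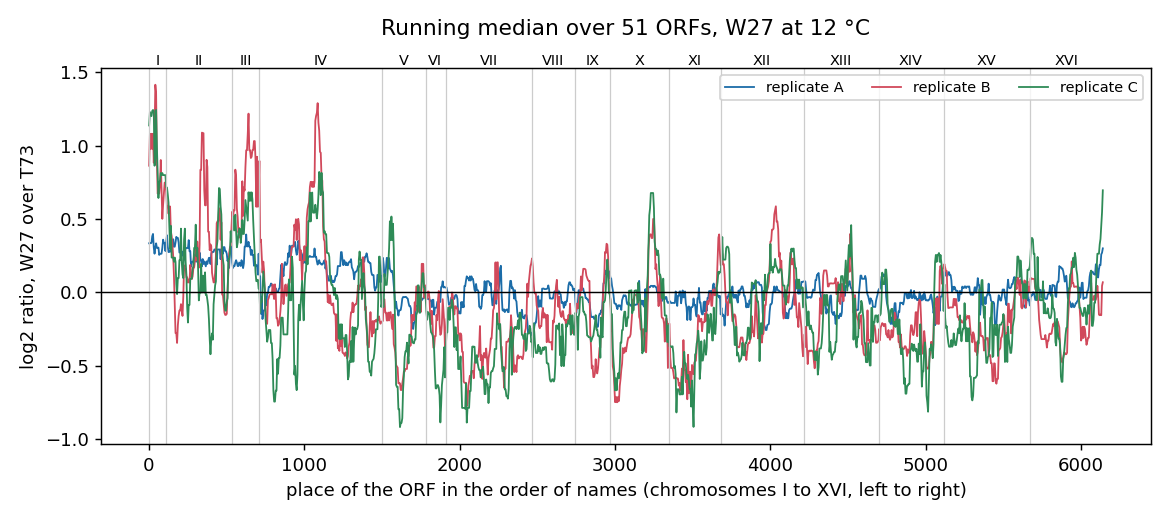
Running median over 51 ORFs of the log2 ratio of W27 over T73 at 12 °C along the order of systematic names, 1 line per array, with grey lines between chromosomes, across which the median runs on. ORFs without standard numbering are left out. Chromosomes I and III lie above 0 on all 3 arrays, and from chromosome V on replicates B and C lie mostly below 0.

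The level also varied along the order of names within chromosomes. In windows of 40 ORFs, 19 of 38 windows on chromosomes I to IV had a median above 0 on all 3 arrays, beside 9 of 116 windows on chromosomes V to XVI. The highest window was the left end of chromosome I, with 0.34, 0.98 and 1.14. The lowest was on the left arm of chromosome XI, between the ORFs numbered 102 and 64, with -0.12, -0.73 and -0.87. The study gives chromosomes IV, V, IX, XIV and XV as chimeric in W27. As a set their ORFs had medians of 0.04, -0.14 and -0.17, beside 0.03, -0.12 and -0.14 for all ORFs. Only some of the genes the study lists there depart from the double and single dose, and not all in 1 way. Medians of whole chromosomes may not show a difference in such genes. Leaving IV aside, the 1475 ORFs of the other 4 had medians of -0.03, -0.24 and -0.23, and the 3172 ORFs of the 8 chromosomes neither chimeric nor among I to III had -0.03, -0.20 and -0.22. Chromosome IV itself had 0.17, 0.06 and -0.02.

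The ends of chromosomes in S. cerevisiae hold many genes of families with near-identical copies, and a spotted PCR product cannot separate such copies. How many copies each outer ORF has was not tested. The 5 outermost ORFs of each end were taken as a class after their values had been seen. Of the 155 with 3 values, 7 (4.52%, exact binomial 95% interval 1.83 to 9.08%, for counting error over ORFs only) were at least 2-fold higher on all 3 arrays and 3 (1.94%) at least 2-fold lower. Among the 5429 ORFs more than 20 places from an end, 31 (0.571%) were higher and 62 (1.14%) lower. By the median, 25 of the 160 outermost ORFs were 2-fold higher (15.6%) and 13 lower (8.13%), beside 10.5% and 11.3% of all 6144 ORFs placed on the chromosomes. The contrast between ends and interior rested largely on replicate A: over B and C alone, 14.2% of the outermost ORFs were 2-fold higher on both arrays, beside 9.63% of those further in.

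These 7 ORFs lay at 7 different ends. YNR077C is one of them. The outermost ORF of the right end of chromosome XIII gave 2.62, 2.68 and 1.54, and that of the right end of chromosome X gave 2.00, 3.27 and 1.68. The third ORF from the left end of chromosome XII gave 2.11, 3.28 and 1.38. These 3 were higher on the quiet replicate A than on C. The others were the third ORF from the right end of chromosome IV (mean 2.00 ± 1.02, SD, n = 3), the third from the right end of chromosome IX (1.70 ± 0.46) and the outermost on the left of chromosome XI (1.47 ± 0.31). Their limma adjusted p-values were between 0.31 and 0.33. VIN7 at 12 °C had 2 of 156 outermost ORFs (1.28%) 2-fold higher on all 3 arrays. W27 at 28 °C had 5 of 150 (3.33%) and VIN7 at 28 °C had 7 of 147 (4.76%), or 4 (2.72%) with the sign of its replicate C turned. Over all placed ORFs the shares were 0.945%, 0.823% and 1.02% in these groups (0.347% for the last with that sign turned), beside 0.726% in W27 at 12 °C. A higher share at the ends was therefore seen in other groups too. The difference between groups was not tested.

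**Figure D4:**
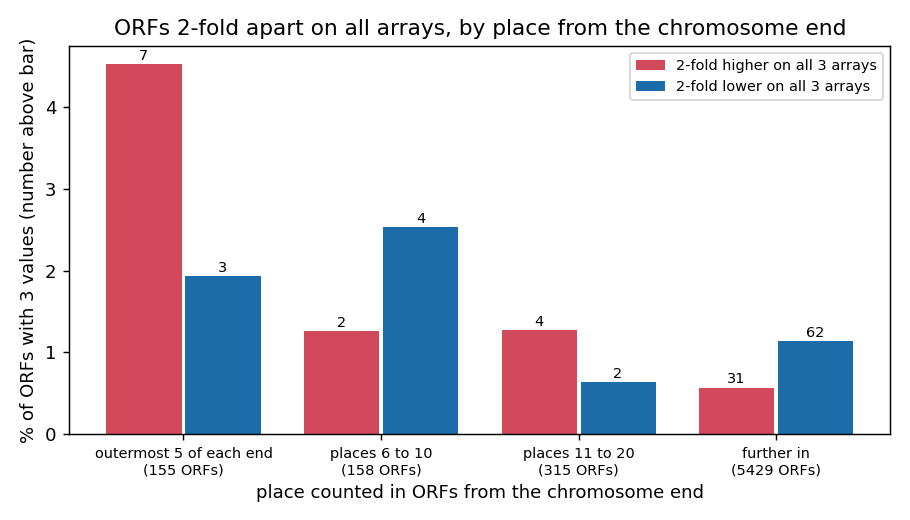
Share (%) of ORFs at least 2-fold higher (red) or lower (blue) in W27 than in T73 on all 3 arrays at 12 °C, by place counted from the chromosome end, with the number of ORFs above each bar. The outermost 5 places hold 4.52% on the higher side, beside 0.571% further in (14.2% and 9.63% over replicates B and C alone).

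On the right arm of chromosome I, 3 ORFs in a row in the table were 2-fold higher on all 3 arrays. The ORF numbered 50 gave 1.48, 1.80 and 2.80, that numbered 52 gave 1.57, 2.46 and 3.69, and that numbered 53 gave 1.35, 6.17 and 3.00. The next one outward, numbered 60, gave -0.73, 0.39 and -0.97. The 3 ORFs were high on every array of W27 at 12 °C, and the SD of the third was 2.45 because of replicate B. The run was picked after its values had been seen. Their means over the arrays with a value were 0.86, 1.95 and 0.11 in W27 at 28 °C and 0.53, -2.42 and 1.72 in VIN7 at 12 °C. In VIN7 at 28 °C as labelled they were -1.37, 0.55 and -1.16, and those with the sign of its replicate C turned are not given here. Strand made little difference to the counts, with 338 of 3095 ORFs on the W strand (10.9%) and 319 of 3079 on the C strand (10.4%) at least 2-fold higher.

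Adjacent ORFs were compared by the orientation of the pair. Convergent pairs, whose 3′ ends face each other, lay on the same side of 0 by their medians in 59.4% of 1555 pairs, against 54.1% of 1578 divergent pairs and 53.0% of 2742 pairs in tandem. For VIN7 at 12 °C the shares were 54.4%, 55.4% and 53.8%. For W27 at 28 °C they were 54.0%, 54.2% and 53.1%. By Spearman's rho of the medians, convergent pairs were the most alike in these 3 groups, with 0.16 beside 0.12 (divergent) and 0.07 (tandem) in W27 at 12 °C. The values were 0.15, 0.12 and 0.10 in VIN7 at 12 °C and 0.13, 0.10 and 0.08 in W27 at 28 °C. In VIN7 at 28 °C as labelled, convergent pairs were not first, with 0.13 beside 0.14 (divergent) and 0.10 (tandem). That order with the sign of its replicate C turned is not given here. On replicates A and B of W27 at 12 °C the order of convergent and divergent pairs differed, with 0.15 and 0.19 on A and 0.10 and 0.08 on B. On replicate C, convergent pairs had 0.16 and divergent pairs 0.23 in VIN7 at 12 °C, and 0.07 and 0.11 in W27 at 28 °C. Convergent pairs were above divergent ones on replicates A and B of VIN7 at 12 °C and of W27 at 28 °C. Pairs share ORFs and arrays, and these shares are given without a test. On replicate B, ORFs 2 places apart were more alike (Spearman's rho 0.21 over 6113 pairs) than ORFs next to each other (0.06 over 6129 pairs). Replicates A and C showed the reverse order, with 0.08 and 0.09 at 2 places and 0.13 and 0.11 for neighbours. The alternation on B went on, with 0.16, 0.12 and 0.12 at 4, 6 and 8 places and 0.05, 0.05 and 0.02 at 3, 5 and 7. At 3 to 8 places on A and C, rho lay between 0.03 and 0.06. What lies behind the alternation was not tested.

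W27 was also compared directly with the other groups in the same fit. Against VIN7 at 12 °C, limma called 0 of 6164 ORFs at an adjusted p under 0.05 (0%), with 137 at an unadjusted p under 0.05, 44 higher and 93 lower in W27. Against W27 at 28 °C it called 0 of 6169 (0%), with 350 unadjusted, 120 higher and 230 lower at 12 °C. Since T73 was grown at each temperature too, the second comparison is one of ratios and not of W27 alone. With the sign of VIN7 at 28 °C replicate C turned, limma again called 0 ORFs in each comparison.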

How the data were processed

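The values were the deposited log2 ratios of 12 arrays (2 colours, PCR-amplified ORFs). According to the study's methods, the authors used GenePix Pro for scanning and a global background subtraction, then Acuity for a normalization per data set and a hand correction for differences between print tips, leaving out spots that the scan software could not locate. Spot intensities were not used here, so the number of arrays, and not a depth, limits the precision. Signs were turned to hybrid over T73. For W27 at 28 °C the source label gives 12 °C, and the title and description were used. Counts used the median of the arrays with at least 2 values and a threshold of 2-fold. limma 3.58.1 in R 4.3.3 (lmFit, eBayes) fitted 4 group means over 12 arrays, with Benjamini-Hochberg adjustment over all ORFs tested. The script was tested on simulated data. The control features (2) were left out. Named ORFs were those with the smallest p and 1 sign on 3 arrays, limited to 2 in each direction because no symbols are paired with the names, plus those the study names. Lists of gene symbols were not run for the same reason. Members and lists were chosen with earlier results of these data known.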

Additional observations from a re-analysis of the deposited data

Results flagged for a closer look

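The median of chromosome X lay on opposite sides of 0 in the hybrids at 12 °C. It was -0.06, -0.21 and -0.08 on the 3 arrays of W27 and 0.03, 0.02 and 0.01 on those of VIN7, a difference of -0.14 between the means of the array medians. The difference was not tested, and it is the only one of 16 chromosomes and 6 named ORFs, each set against VIN7 at 12 °C and W27 at 28 °C, with such a split. The split did not hold with each array recentred on its median, where W27 gave -0.08, -0.09 and 0.06 and VIN7 gave 0.05, -0.02 and 0.01.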

How the results depend on the processing

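At 1.5-fold, 1213 ORFs were higher and 1519 lower, and at 4-fold 145 and 15. Leaving out 1 array at a time gave 480 to 1028 ORFs higher and 326 to 1095 lower. The share of higher ORFs among those past 2-fold was 48.6% and became 58.5% with each array recentred on its median. It was 58.7% with the trend along the names removed (added after seeing the data, with ORFs of older names put last on their chromosome). Without replicate C it was 63.9% and without replicate B 42.9%. limma's count stayed at 0 in all alternatives run, with the replicate letter as a block (0 for W27 against 0 and for both differences; 934, 133 and 384 at an unadjusted p under 0.05), with the sign of VIN7 at 28 °C replicate C turned and without each replicate; with no adjustment it was 910, 137 and 350. The lowest adjusted p against 0 ranged from 0.051 with array weights to 0.95 without replicate C. Deviations of same-letter arrays correlated above 0.1 in 2 of 9 pairs with W27 at 12 °C and in 6 of 18 pairs of all groups. Among the 6 were all 3 of VIN7 at 12 °C with VIN7 at 28 °C (0.31, 0.22 and 0.57). W27 at 12 °C with VIN7 at 28 °C gave -0.32, 0.17 and -0.44. These values used VIN7 at 28 °C replicate C as labelled, and those with its sign turned are not given here. The letters were not taken to pair W27 at 12 °C with other groups. The 6 named ORFs kept the sign of their mean throughout. All but YIR007W had 1 sign on 3 arrays, and most were chosen for that. For these, leaving out an array or taking the median could not turn the sign.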

Other observations

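The spots of control features and transposon ORFs gave scattered ratios in W27 at 12 °C. The buffer spot, 3XSSC, gave -0.63, 0.80 and 1.10, and the Arabidopsis spot gave -0.14, 0.65 and 2.50. The transposon ORF YFL-TYA gave -0.25, 1.11 and -0.81 and YFL-TYB gave -0.31, -0.10 and 0.18. None of the 4 kept 1 sign on the 3 arrays.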
